A study of Mus musculus with 2 samples.

Results

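The muscle kelch genes Klhl21, Klhl24, Klhl30, Klhl31, Klhl40 and Klhl41 were taken by gene name from long-read RNA sequencing of mouse gastrocnemius. All 6 genes had reads in both libraries, of 15521 annotated genes with a read in either. They held 50 of 94598 transcript models in replicate 2 and 46 of 75228 in replicate 1. The animals were female B6CASTF1/J mice aged 25 days, first-generation offspring of C57BL/6J and the wild-derived CAST strain, and each library was made from 2 µg of total RNA. The labels give 1 group with 2 biological replicates, numbered 1 and 2 under the same donor record. That these were separate animals rests on this numbering alone. With 1 group no condition was compared: each test below sets replicate 2 against replicate 1 and measures how far these 2 libraries differed. The series names no treatment or mutation. Replicate 2 held 1557594 mouse reads and replicate 1 held 1069771, and 0 reads of a gene would allow up to 1.93 CPM (a gene's reads scaled to library size, without spike-ins) in replicate 2 and 2.80 CPM in replicate 1.

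BTB-kelch proteins join a BTB domain, which binds the cullin CUL3, to a propeller of kelch repeats that holds a target protein, so that the RING protein RBX1 in the same ligase can bring ubiquitin to it. Several members of the family are enriched in skeletal muscle. Some, such as KLHL40, are known for protecting their partners as well as for turnover, and loss of KLHL40 or KLHL41 causes nemaline myopathy, a disease of the thin filament, in people.

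Klhl40 and Klhl41 share an exon plan. Exons 3 to 6 of the annotated transcripts carry 108, 186, 147 and 109 coding bases in both genes, with 50%, 57%, 66.7% and 58.7% of the bases identical. Over the 1812 bases that aligned between the whole coding sequences, 58.8% were identical, the highest share of the 15 pairs among the 6 genes. The lowest was Klhl24 with Klhl30 at 51.4%. Unaligned bases were left out of these shares, while the exon values take every base. Exon 3 is printed for both genes (mm10, plus strand; Klhl40 at chr9:121780372-121780479 and Klhl41 at chr2:69674623-69674730), with capitals at the bases that differ between them.
Klhl40: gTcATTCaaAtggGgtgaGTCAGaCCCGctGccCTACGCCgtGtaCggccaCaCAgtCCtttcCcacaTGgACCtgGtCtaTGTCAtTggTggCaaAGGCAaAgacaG
Klhl41: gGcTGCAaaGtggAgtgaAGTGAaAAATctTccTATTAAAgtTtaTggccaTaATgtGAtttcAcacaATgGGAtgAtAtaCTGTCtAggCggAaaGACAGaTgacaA
No pair of the 6 genes is near-identical over the coding sequence.

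By reads filed under each gene, Klhl40 was the most read of the 6 genes in both libraries and Klhl24 the least read. Single-exon reads of the opposite strand, described below, are not in these counts. Over Klhl31 they numbered 6902 in replicate 2 and 1850 in replicate 1. A long read stands for 1 cDNA molecule, so CPM here was not divided by transcript length. Longer transcripts can still yield fewer complete reads, so the order between genes is one of recovered reads. By mean CPM the order was Klhl40, Klhl41, Klhl30, Klhl31, Klhl21 and Klhl24, at ranks 348, 1019, 1176, 1476, 1647 and 4105 of the 15521 genes. Between these ends, replicate 2 gave the order Klhl41, Klhl31, Klhl21 and Klhl30, and replicate 1 gave Klhl30, Klhl41, Klhl31 and Klhl21, so the places of these 4 genes did not hold beyond the spread between libraries. The 6 genes together took 630 reads (404 CPM) in replicate 2 and 881 reads (824 CPM) in replicate 1, a mean of 614 ± 296 CPM (SD, n = 2). Klhl40 alone supplied 34.4% of these reads in replicate 2 and 49.6% in replicate 1.

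**Figure D1:**
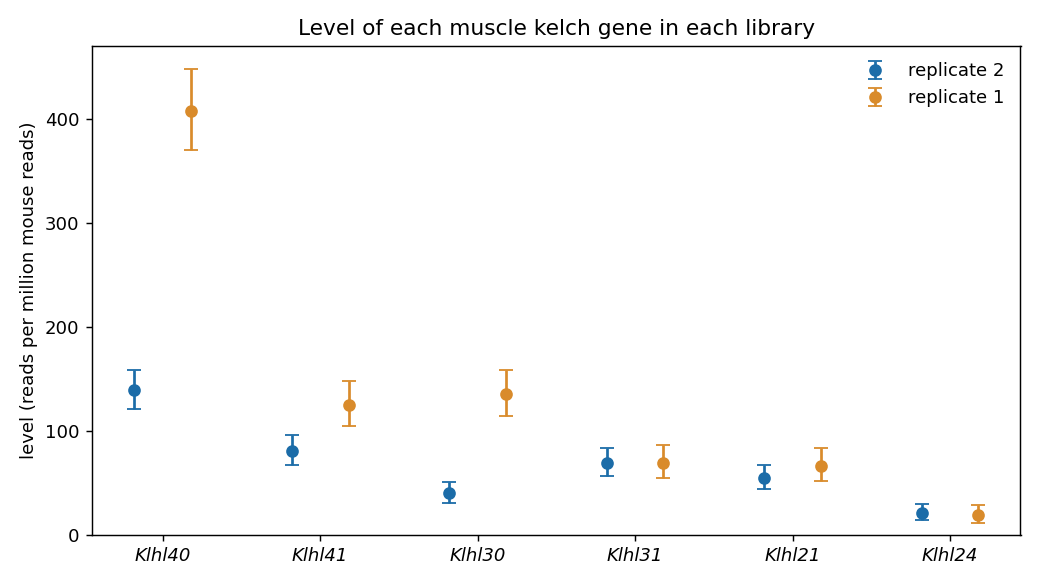
Level of each gene in CPM (vertical axis, from 0), replicate 2 left of replicate 1, with exact 95% intervals for counting error as bars. The intervals of Klhl40, Klhl41 and Klhl30 do not overlap between the libraries, while those of Klhl31, Klhl21 and Klhl24 do.

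Klhl40, Klhl41 and Klhl30 were lower in replicate 2, and Klhl31, Klhl21 and Klhl24 did not pass the test. The test was Fisher's exact test, two-sided, of a gene's reads against the rest of its library, with Benjamini-Hochberg adjustment over the 8892 annotated genes that had 10 or more reads, and a gene was called at an adjusted p under 0.05. Calls were frequent: 26.0% of all tested genes passed, 14.9% of tested genes lower (1328 genes) and 11.1% higher (983 genes) in replicate 2. The split moved with the scaling, to 870 lower and 1255 higher with TMM, 786 lower and 1349 higher with DESeq2 size factors, and 382 lower and 2053 higher with ERCC reads, which raise every log2 ratio by 0.17, 0.22 and 0.54. Scaled to library size, 47% of the 4214 genes with 50 or more reads, all 6 members among them, were called, 25.5% lower and 21.5% higher. The 3 members called, all lower, stand against these shares. The median log2 ratio of all 6 was -0.46, beside -0.18 over all genes tested. With the length trend removed, 1 member was called higher and 2 lower, and the median of the 6 was -0.04, beside a median over all genes at 0. All ratios are replicate 2 over replicate 1, on a log2 scale with 0.5 reads added to each count.

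Klhl40 (ENSMUSG00000074001.3, chromosome 9, 121777607 to 121783818, plus strand, mm10), which stabilises nebulin and leiomodin-3 of the thin filament, had 217 reads (139 CPM) in replicate 2 and 437 reads (408 CPM) in replicate 1. The level in replicate 2 was lower by a log2 ratio of -1.55 (95% interval -1.79 to -1.31; adjusted p = 2.43e-39 by Fisher's exact test). This ratio turned to 0.29 when single-exon reads of the opposite strand over its last exon were counted in, an alternative described with those reads. Klhl30 (ENSMUSG00000026308.8, chromosome 1, 91351016 to 91362416, plus strand), a family member expressed in muscle, had 62 reads (39.8 CPM) in replicate 2 and 145 reads (136 CPM) in replicate 1. Its log2 ratio of -1.76 (-2.22 to -1.33; adjusted p = 9.34e-16, Fisher's exact test) was the most negative of the 6. Both calls remained with TMM, where 23.9% of all genes were called, with DESeq2 size factors (24% called), with ERCC reads (27.4% called) and with the length trend removed (13.2% called).

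Klhl41 (ENSMUSG00000075307.3, chromosome 2, 69670120 to 69684230, plus strand), a sarcomere-associated kelch protein, had 125 reads (80.3 CPM) in replicate 2 and 134 reads (125 CPM) in replicate 1. Its log2 ratio was -0.64 (-1.01 to -0.28; adjusted p = 0.00275, Fisher's exact test). This call depended on the scaling: the adjusted p was 0.0434 with TMM, 0.0771 with DESeq2 size factors, 0.772 with ERCC reads and 0.229 with the length trend removed.

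Klhl31 (ENSMUSG00000044938.8, chromosome 9, 77636500 to 77660127, plus strand), needed for muscle growth in mice, had 108 reads (69.3 CPM) in replicate 2 and 74 reads (69.2 CPM) in replicate 1, a log2 ratio of 0.00 (-0.44 to 0.45). It was called higher, at 1.32, when single-exon reads of the opposite strand were counted in. Klhl21 (ENSMUSG00000073700.3, chromosome 4, 152008803 to 152017680, plus strand), which in human cells directs CUL3 to Aurora B during division, had 85 reads (54.6 CPM) in replicate 2 and 71 reads (66.4 CPM) in replicate 1, a log2 ratio of -0.28 (-0.75 to 0.19). Klhl24 (ENSMUSG00000062901.3, chromosome 16, 20097542 to 20129221, plus strand), which in human skin targets keratin 14, had 33 reads (21.2 CPM) in replicate 2 and 20 reads (18.7 CPM) in replicate 1, a log2 ratio of 0.17 (-0.66 to 1.06). These 3 genes overlapped between the libraries within counting error. Their adjusted p-values by Fisher's exact test were 1 for Klhl31, 0.414 for Klhl21 and 0.911 for Klhl24.

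Counting error is only part of the spread. With edgeR's exact test at a coefficient of variation of 0.361, 15 genes of 8892 (0.169%) were called and no member was, with an adjusted p of 1 for each. That variation was estimated from both libraries as 1 group, so it takes in the difference being tested, and few calls follow from its construction. At a fixed dispersion of 0.04, 200 genes (2.25%) were called, among them Klhl30 (adjusted p = 0.0183) and Klhl40 (adjusted p = 0.0257). The calls by Fisher's exact test set 2 libraries apart and carry no estimate of how animals vary.

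Ratios fell with transcript length over the whole tissue, and the 6 genes span that range. Across 8752 tested genes with a complete chain, the log2 ratio had a Spearman correlation of -0.50 with length, given as a description since genes are not replicates. Length here is that of a gene's most read complete model. Genes of 2000 to 3500 bases (2852 genes) had a median log2 ratio of -0.33, and those of 3500 bases and over (2820 genes) one of -0.61. Klhl40 (2370 bases), Klhl41 (2529) and Klhl30 (3089) lay at trend values of -0.24, -0.29 and -0.44. Klhl21 (3986 bases), Klhl31 (6494) and Klhl24 (8172) lay at -0.57, -0.66 and -0.65, and all 3 sat above the trend. With the trend removed, the log2 ratio was -1.31 for Klhl40 and -1.32 for Klhl30, both still called, and 0.66 for Klhl31, which was then called higher in replicate 2 (adjusted p = 0.0218, exact binomial test). Under the same removal 13.2% of 8752 genes were called, 7.56% higher and 5.59% lower. Klhl21 turned to 0.28 (adjusted p = 0.546) and Klhl24 stood at 0.82 (adjusted p = 0.189).

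**Figure D2:**
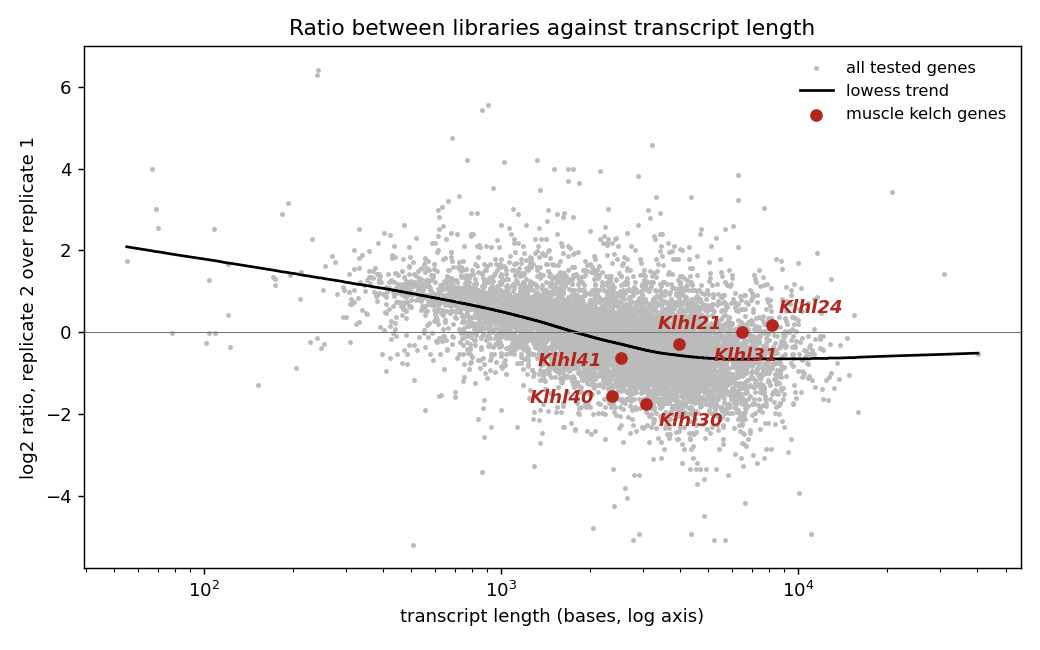
Log2 ratio of replicate 2 over replicate 1 against transcript length in bases (log axis) for all tested genes (grey), with the lowess trend (black) and the 6 muscle kelch genes (red). Klhl40, Klhl41 and Klhl30 sit below the trend at -1.55, -0.64 and -1.76, and Klhl21, Klhl31 and Klhl24 above it at -0.28, 0.00 and 0.17.

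The libraries also differed in markers of fibre type and of other tissue. Skeletal fibre markers stood at 214826 CPM in replicate 2 and 318748 CPM in replicate 1, and all 8 were read in both. Of these, 4 were called higher in replicate 2 (Acta1, Ckm, Tnnt3 and Myh7) and 4 lower, among them Atp2a1 (56409 CPM in replicate 2, 157924 CPM in replicate 1). The 6 slow fibre markers, all called higher in replicate 2, summed to 7158 CPM there and 967 CPM in replicate 1. The 4 tendon markers, all called higher, summed to 339 CPM in replicate 2 and 45.8 CPM in replicate 1. All 3 adipocyte markers were called lower, at 86.7 CPM in replicate 2 and 327 CPM in replicate 1, as were all 3 blood markers, at 345 CPM in replicate 2 and 990 CPM in replicate 1. No marker of these lists was at 0 in either library. Fewer cells of a type and less RNA per cell cannot be told apart in bulk RNA, and the part of these differences in the ratios of the kelch genes was not tested.

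Most reads of Klhl40 and Klhl41 were filed under complete models in both libraries, and in replicate 2 most reads of Klhl31, Klhl21 and Klhl24 were not. The files sort each model into a class. Known follows an annotated transcript, NIC joins annotated splice sites in a new order, and NNC uses at least 1 unannotated site. ISM holds only part of a chain, and Genomic models fit none of these and include unspliced reads. Some ISM models and some NIC models of these genes hold an intron with unannotated sites. Known, NIC and NNC are called complete here. Complete models held 91.7% of Klhl40 reads in replicate 2 and 95.4% in replicate 1. For Klhl41 this share was 84.8% in replicate 2 and 97.8% in replicate 1. For Klhl30 the shares were 62.9% in replicate 2 and 70.3% in replicate 1. For Klhl24 they were 42.4% in replicate 2 and 55% in replicate 1. Klhl21 had 37.6% in replicate 2 and 54.9% in replicate 1, and Klhl31 had 22.2% in replicate 2 and 41.9% in replicate 1. Over the 6 genes, 65.7% of reads in replicate 2 and 83.0% in replicate 1 were complete, beside 82.2% of the reads of all annotated genes in replicate 2 and 89.3% in replicate 1. The complete share was lower in replicate 2 for each member.

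**Figure D3:**
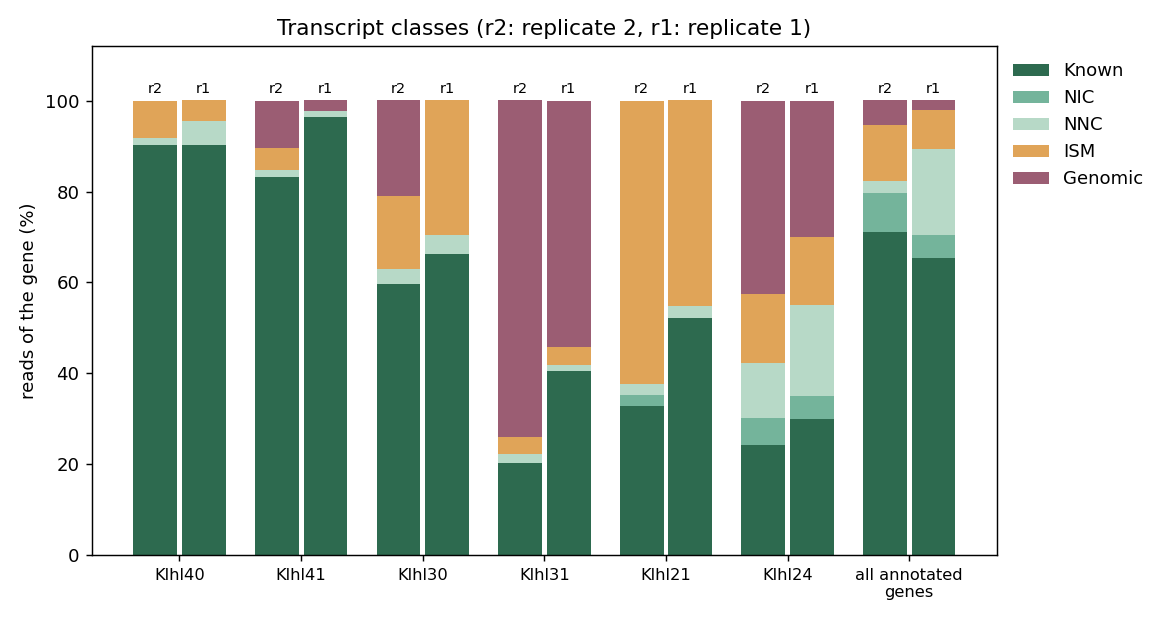
Share of each gene's reads in each transcript class (percent, stacked from 0), replicate 2 (r2) left of replicate 1 (r1), with all annotated genes at the right. Known models fill 90.3% of the Klhl40 bar in replicate 2 and 90.2% in replicate 1, Genomic models fill 74.1% of the Klhl31 bar in replicate 2 and 54.1% in replicate 1, and ISM models fill 62.4% of the Klhl21 bar in replicate 2 and 45.1% in replicate 1.

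The share of reads filed under models that hold the whole annotated coding sequence was highest for Klhl40 and Klhl41. Model ends are those deposited, so how far each read reached was not examined. For Klhl40 it was 90.8% in replicate 2 (exact 95% interval 86.1% to 94.3%) and 95% in replicate 1 (92.5% to 96.8%), and for Klhl41 84% in replicate 2 (76.4% to 89.9%) and 96.3% in replicate 1 (91.5% to 98.8%). Klhl30 followed with 67.7% in replicate 2 and 76.6% in replicate 1. Klhl24 had 48.5% in replicate 2 and 55% in replicate 1, and Klhl21 had 34.1% in replicate 2 and 54.9% in replicate 1. Klhl31 had the lowest share, 24.1% in replicate 2 (16.4% to 33.3%) and 40.5% in replicate 1. Counting complete chains alone gave log2 ratios of -0.90 for Klhl31 (adjusted p = 0.0623) and -0.82 for Klhl21 (adjusted p = 0.0522), where all their reads gave 0.00 and -0.28; complete chains called 29.8% of 7634 genes. Among reads of spliced models with a start codon, the annotated frame was kept in at least 91.2% for every gene and library.

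**Figure D4:**
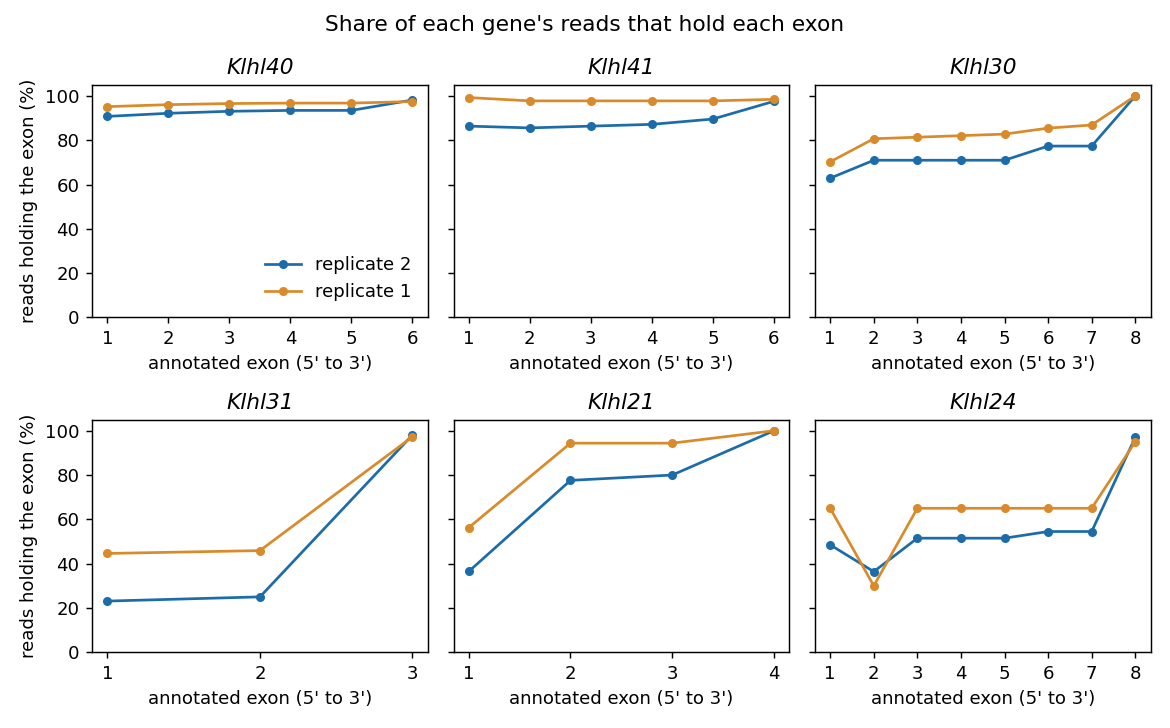
Percent of each gene's reads (vertical axis) filed under models that hold each exon of the annotated transcript (horizontal axis, 5′ to 3′). Replicate 2 is in blue and replicate 1 in orange. Klhl40 and Klhl41 stay above 85% at every exon, Klhl31 drops to 23.1% in replicate 2 and 44.6% in replicate 1 at exon 1, and Klhl24 dips at its noncoding exon 2 to 36.4% in replicate 2 and 30% in replicate 1.

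Klhl31 reads lay mostly in the last exon. That exon has 5001 bases, of which 730 are coding, and 80 of 108 reads in replicate 2 and 40 of 74 in replicate 1 were single-exon models inside it. In replicate 2, 70 of these were filed under a model that begins 1566 bases into the exon, past the stop codon. The 40 of replicate 1 were filed under a model that begins 720 bases in and holds the stop codon. These are deposited model starts, so where each read began, and whether it held the stop codon, was not examined. The annotated 3-exon chain, with a frame of 634 codons, had 22 reads in replicate 2 and 30 in replicate 1. It was the most read spliced chain in both libraries.

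Klhl21 reads were often filed under a model that begins at exon 2. The annotated chain of 4 exons had 28 reads in replicate 2 and 37 in replicate 1, and a 3-exon form that begins at exon 2 and lacks the start codon had 35 reads in replicate 2 and 27 in replicate 1. The junction those reads do not reach is printed as the last 30 bases of exon 1 in capitals and the first 30 of exon 2 in lower case (mm10, plus strand, chr4:152009934-152009963 and chr4:152012300-152012329).
Klhl21 exon 1 to exon 2: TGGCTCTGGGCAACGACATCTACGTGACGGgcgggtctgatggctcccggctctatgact
A chain that skips exon 2 had 2 reads in replicate 2 and 0 in replicate 1, and its frame stops after 362 codons in place of 597. An intron of 91 bases in the 3′ untranslated part, with GT and AG ends and no annotation, was spliced out of 2 reads in each library.

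Some reads filed under Klhl40 were of a form that runs past its annotated end. The annotated chain of 6 exons had 196 reads in replicate 2 and 394 in replicate 1. A 7-exon chain added an unannotated intron of 82 bases at chr9:121784351-121784432 and ended at 121786029, which lies inside Hhatl, a gene on the opposite strand at 121784016 to 121792507. This chain had 1 read in replicate 2 and 21 in replicate 1, and a 2-exon form holding only the new intron had 2 reads in replicate 2 and 11 in replicate 1. The 2-exon form runs from 121784016 to 121786029, wholly past the annotated end of Klhl40 and inside Hhatl, and was filed under Klhl40 in the deposited files. The bases at the ends of this intron were not read here, so its strand was not checked. It was called unannotated against the introns of Klhl40 alone and was not compared with those of Hhatl. Counted over all forms, the intron was in 3 of 217 reads filed under Klhl40 in replicate 2 and 33 of 437 in replicate 1. The 2-exon form among these holds no exon of Klhl40. Since the added part follows the stop codon, the 7-exon chain kept the full frame of 621 codons. The annotated chain took 98.5% of complete reads in replicate 2 (95.7% to 99.7%) and 94.5% in replicate 1 (91.8% to 96.5%), with p = 0.0187 and adjusted p = 0.683 by Fisher's exact test.

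Klhl30 had an unannotated intron that removes its stop codon. The intron of 599 bases lies within the last exon, at chr1:91361138-91361736, has GT and AG ends, and was spliced out of 3 reads in replicate 2 and 7 in replicate 1. Its donor is shown with 15 bases on each side of the cut, the GT in capitals (mm10, plus strand, chr1:91361123-91361152).
Klhl30 donor: gaggcctacgacactGTaagagatgcctgg
The 9-exon chain with this intron, 2 reads in replicate 2 and 5 in replicate 1, reads on to a stop at 91361902 and has 594 codons where the annotated transcript has 581. The annotated 8-exon chain led with 37 reads in replicate 2 and 96 in replicate 1. A form without the noncoding exon 1 had 5 reads in replicate 2 and 15 in replicate 1 and kept the annotated frame. A 3-exon form from exon 6 onward had 4 reads in each library.

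Klhl24 had few reads, spread over 9 spliced chains, of which 4 rested on 1 read. The annotated 8-exon chain had 8 reads in replicate 2 and 5 in replicate 1. An unannotated intron of 494 bases in its 3′ untranslated part, with GT and AG ends at 20123814 to 20124307, was in 7 reads in replicate 2 and 3 in replicate 1. The 9-exon chain with that intron had 4 reads in replicate 2 and 1 in replicate 1, and was filed as NNC in replicate 2 and as NIC in replicate 1, so class labels were not applied alike to the same chain. Chains that skip the noncoding exon 2 had 2 reads in each library without that intron and 2 reads in each with it, and both of these chains encode the annotated 600 codons.

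Klhl41 was nearly uniform. Its annotated 6-exon chain, with 606 codons, had 104 reads in replicate 2 and 129 in replicate 1, which is 98.1% of complete reads in replicate 2 and 98.5% in replicate 1. No other chain reached 5 reads. A 2-exon form of the last 2 exons had 3 reads in replicate 2 and 0 in replicate 1, and each remaining spliced chain had 1 read.

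Over the 6 genes there were 52 spliced chains, of which 23 were seen in both libraries and 25 rested on 1 read. They used 21 unannotated introns, 5 of them seen in both libraries. Both ends could be read in annotated exons for 8 introns, and 6 of these had GT and AG ends. The share of the most read complete chain was tested for genes with at least 2 complete chains and 20 complete reads in both libraries. By Fisher's exact test with Benjamini-Hochberg adjustment, 22 of 3253 genes (0.676%) were called and 0 of the 5 members tested, of which Klhl40 alone had an unadjusted p under 0.05. Klhl24 had too few reads to be tested.

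Klhl31, Klhl24 and Klhl40 were covered by reads of the opposite strand, which the gene totals above do not hold. Single-exon models outside the Known class, with at least 50% of their bases inside the exons of a gene on the other strand, were summed for each gene. Over Klhl31 there were 6902 such reads in replicate 2 and 1850 in replicate 1, which is 63.9 times the gene's own reads in replicate 2 and 25 times in replicate 1. The sum over both libraries was the largest of all 8892 genes. Those of replicate 2 are 1 model of 1488 bases and those of replicate 1 are 1 model of 3604 bases, both inside the last exon. Over Klhl24 there were 102 reads in replicate 2 and 48 in replicate 1, where its own reads were 33 in replicate 2 and 20 in replicate 1. Over Klhl40 there were 652 reads in replicate 2 and 50 in replicate 1, in a model that spans the last exon of Klhl40 and that the files assign to Hhatl. Klhl21, Klhl30 and Klhl41 had 0 by this measure. A model of 37 reads in replicate 2 and one of 8 reads in replicate 1 touched the last exon of Klhl41 from the opposite strand, but lay mostly outside its exons. More opposite-strand than own reads in both libraries were found for 49 of the 8892 genes (0.551%), and Klhl31 and Klhl24 are 2 of them.

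**Figure D5:**
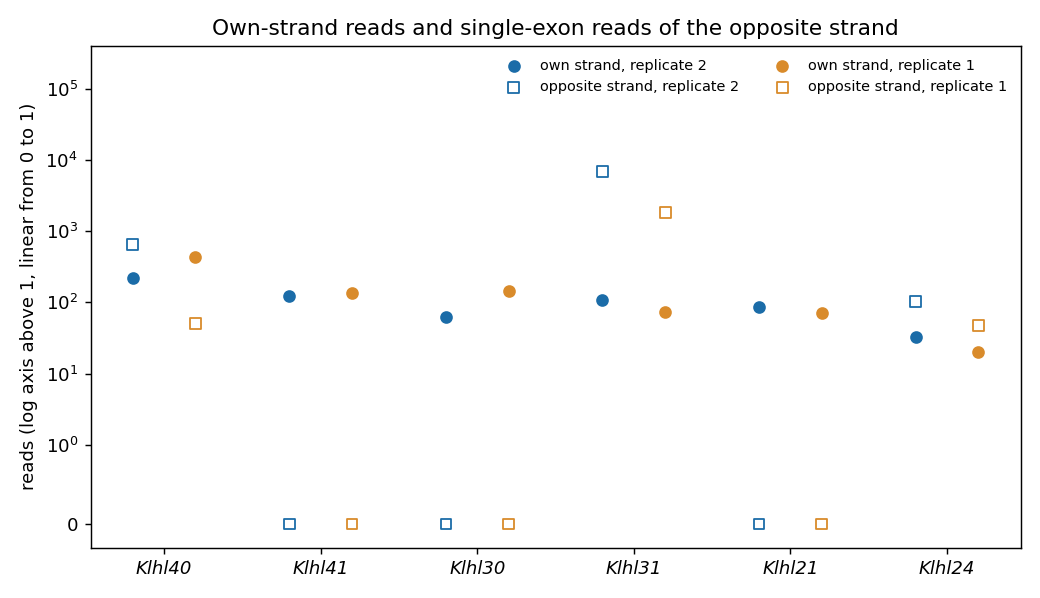
Reads of each gene on its own strand (filled circles) and single-exon reads of the opposite strand inside its exons (open squares), replicate 2 left of replicate 1, on a log axis above 1. The open squares of Klhl31 stand at 6902 in replicate 2 and 1850 in replicate 1, and those of Klhl21, Klhl30 and Klhl41 at 0.

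Counting these reads in changed the ratios of Klhl40, Klhl31 and Klhl24. Adding them to Klhl40 gave 869 reads in replicate 2 and 487 in replicate 1. Its log2 ratio turned to 0.29 (adjusted p = 0.00234, Fisher's exact test), where 26.1% of 9138 genes were called. Whether they come from a transcript of the other strand, from Hhatl or from Klhl40 was not tested. Of the reads filed under Hhatl, in replicate 2 652 of 996 and in replicate 1 52 of 333 were single-exon models, and without them Hhatl had 344 reads (221 CPM) in replicate 2 and 281 reads (263 CPM) in replicate 1. The complete chains of Klhl40, whose strand is fixed by their splice sites, had 199 reads in replicate 2 and 417 in replicate 1, and their log2 ratio was -1.61 (adjusted p = 2e-39, Fisher's exact test). For Klhl31 the sum with the opposite strand was 7010 reads in replicate 2 and 1924 in replicate 1, a log2 ratio of 1.32 that was called higher (its adjusted p by Fisher's exact test was too small to compute and came out as 0). For Klhl24 it was 135 reads in replicate 2 and 68 in replicate 1, a log2 ratio of 0.44 (adjusted p = 0.116). Whether the opposite-strand reads over Klhl31 and Klhl24 come from those genes or from a transcript of the other strand was not tested.

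The sequence before the start is printed for Klhl40 and Klhl41, the 2 members with the highest mean CPM of reads filed under the gene. It is the 250 bases upstream of the RefSeq start (GRCm38.p6, plus strand, chr9:121777357-121777606 and chr2:69669870-69670119). Capitals mark matches to the E-box CANNTG, which myogenic bHLH factors can bind, and in Klhl41 also the match to the MEF2 motif, searched on both strands.
Klhl40: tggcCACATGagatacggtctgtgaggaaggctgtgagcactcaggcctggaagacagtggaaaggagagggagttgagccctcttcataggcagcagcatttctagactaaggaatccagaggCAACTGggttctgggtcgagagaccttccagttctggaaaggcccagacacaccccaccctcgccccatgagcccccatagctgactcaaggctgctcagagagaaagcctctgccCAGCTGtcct
Klhl41: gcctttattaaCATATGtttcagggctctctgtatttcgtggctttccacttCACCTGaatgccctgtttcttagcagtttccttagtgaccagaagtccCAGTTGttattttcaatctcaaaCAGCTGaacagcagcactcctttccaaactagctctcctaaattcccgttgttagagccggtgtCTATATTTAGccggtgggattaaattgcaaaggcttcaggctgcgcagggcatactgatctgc
In the 300-base window that also takes 50 bases past the start, each had 4 E-boxes, with 1 of those of Klhl40 past its start. Of 32851 RefSeq promoters of that length, 72.3% held an E-box and 6.49% held 4 or more. The MEF2 match of Klhl41 began 63 bases before the start, and 3.19% of promoters held one. Klhl21 had 2 E-boxes and Klhl31 had 0, and neither had a MEF2 match. Of the 6 genes 4 matched the RefSeq table, and Klhl24 and Klhl30 did not. The annotated start of the Klhl40 transcript that was read, at 121777691, lies downstream of the RefSeq start used here. These matches are descriptions of letters.

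The partners of these proteins were present in both libraries. Cul3, the scaffold, was at 131 CPM in replicate 2 and at 155 CPM in replicate 1 (log2 ratio -0.25, adjusted p = 0.257, Fisher's exact test). Of 24 genes of the CUL3 ligase and of neddylation, which switches cullins on, 5 were called higher in replicate 2, 2 lower and 17 did not pass. Over all tested genes 26% were called, 11.1% higher and 14.9% lower, shares that also stand beside the lists below. The median log2 ratio of the 24 genes was -0.03, beside -0.18 over all genes tested. The 4 most read were Ube2m, the NEDD8-conjugating enzyme (220 ± 75.3 CPM, called higher), Cops6 (208 ± 38.4 CPM, called higher) and Cops4 (208 ± 6.62 CPM, called higher with ERCC reads alone) of the COP9 signalosome, and the RING protein gene Rbx1 (165 ± 37.5 CPM, called higher; SD, n = 2). With the length trend removed 4 were called, all higher. Of 7 other cullins, Cul4a was called lower (adjusted p = 1.61e-06; 0.19 with the length trend removed and 0.119 with ERCC reads) and 6 did not pass, with a median log2 ratio of -0.43. Cul4a had 124 ± 51.9 CPM, Cul1 63.4 ± 4.26, Cul2 59.2 ± 12.8 and Cul5 37.7 ± 11.5.

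The 50 other BTB-kelch genes of the mouse were mostly low. Reads were found for 39, and together they summed to 651 CPM in replicate 2 and 635 CPM in replicate 1, beside 404 CPM in replicate 2 and 824 CPM in replicate 1 for the 6 muscle kelch genes. Of 23 tested, Klhl33 was called higher, Klhl34 and Klhl7 lower, and 20 did not pass, with a median log2 ratio of -0.18, equal to that of all genes. Klhl33 had 215 reads in replicate 2 and 53 in replicate 1, a log2 ratio of 1.47 (adjusted p = 9.64e-12, Fisher's exact test), and stayed called under each scaling and with the length trend removed. Klhl34 did too, while Klhl7 (adjusted p = 0.0444) was not called under any of these. The other leading genes were Ivns1abp (122 ± 12.2 CPM), Keap1, the sensor that holds NRF2 (54.0 ± 2.89 CPM), and Klhl22 (50.9 ± 12.5 CPM), none of them called. Klhl22 was called higher under each other scaling and with the length trend removed, and Ivns1abp with all of these but TMM.

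Thin filament and nemaline genes moved in both directions. Among all genes with 50 or more reads, which take in every gene of this list, 47% were called, 21.5% higher and 25.5% lower. Of the 12 genes listed, 4 were called higher in replicate 2, 6 lower and 2 did not pass. Their median log2 ratio was -0.11, beside -0.18 over all genes tested. Of the 4 most read, the troponin T genes Tnnt3 (log2 ratio 0.85) and Tnnt1 (4.17) were called higher under each scaling. Skeletal actin Acta1 was called higher (0.02) and turned to -0.17 with the length trend removed, and tropomyosin Tpm2 was called lower (-0.16) and turned to 0.01 with TMM, 0.06 with DESeq2 size factors and 0.38 with ERCC reads. The known partners of KLHL40, named here outside the rule for their role, were Lmod3 and Neb. Lmod3, at 131 CPM in replicate 2 and at 136 CPM in replicate 1, did not pass the test (adjusted p = 0.862, Fisher's exact test; 0.011 with ERCC reads, where it was higher). Neb, at 132 CPM in replicate 2 and at 186 CPM in replicate 1, was called lower. Its log2 ratio was -0.50 (adjusted p = 0.00382, Fisher's exact test). It was not called with TMM (adjusted p = 0.0862), DESeq2 size factors (0.167) or ERCC reads (0.924), by exact binomial tests. Removal of the length trend gave -1.01 (adjusted p = 1.98e-10, exact binomial test). That step took Neb at 1000 bases, the length of its most read complete model, where the trend was 0.51. The value of -1.01 rests on that length, which need not be that of the full transcript. Of 19 other muscle ubiquitin ligases, 1 was called higher, 5 lower and 13 did not pass, with a median of -0.22. Of their 4 most read genes, Nedd4 (log2 ratio -1.53) and Fbxo40 (-1.05) were called lower under each scaling and Trim54 (-0.01) was not called, except as higher with ERCC reads. Asb2 (-0.25) was called lower, was not called with TMM or DESeq2 size factors, and turned to 0.29 with ERCC reads and to 0.09 with the length trend removed.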

How the data were processed

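The authors deposited raw whole-number counts of long reads per transcript model for each library, with TALON gene models, per the file headers. The notes deposited with the files name mm10 and GENCODE M21, with aligner and version not given in the sources used here. The 6 genes, the gene lists and the tests were chosen with earlier results of these data known.

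Gene counts were sums over all models filed under a gene. Chains were matched between libraries by chromosome, strand and introns, and model ends are those deposited, not the ends of each read. CPM used mouse reads without ERCC spike-ins. Intervals are exact 95% intervals, and they and the floors (3 reads) cover counting error only. P-values of Fisher's exact test and of the binomial test set the difference between these 2 libraries against counting error only.

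Named were the 6 genes, their chains of 5 or more reads (or the 3 most read) and the 4 most read genes of each list. Klhl7, Klhl33 and Klhl34 were also named because few genes of their list were called, and Hhatl for its overlap. A further list of markers of other cells is not reported here. Alternatives were TMM and exact tests from edgeR 4.0.16, DESeq2 1.42.0 size factors, ERCC scaling, removal of the length trend by lowess (fraction 0.4), other read minimums and classes, and, added once the data had been seen, opposite-strand reads found with bedtools 2.31.1. Tests ran in Python 3.11.15 with scipy 1.17.1. The Fisher tests were tried on simulated counts with counting error alone, which cannot show how the calls hold where libraries vary further.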

Additional observations from a re-analysis of the deposited data

How the results depend on the processing

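No paired analysis was possible because the labels give only 1 group. The number of members called was 3, stayed from 2 to 4 under every alternative run except edgeR's exact test with the estimated dispersion, where it was 0, and no member was called for its leading chain with all spliced models, with chains of 5 or more reads, with 10 or more reads in each library or at an adjusted p of 0.01. Of all genes, 2311 were called, against 1151 with the length trend removed, 200 with edgeR at a dispersion of 0.04 and 15 with the estimated dispersion. The leading chain differed in 22 genes, in 11 with Known models alone, in 93 with all spliced models and in 13 at an adjusted p of 0.01. TMM, DESeq2 size factors and ERCC reads raise every log2 ratio by 0.17, 0.22 and 0.54, and ERCC scaling moved the split of calls over all genes to 23.1% higher and 4.30% lower in replicate 2. Log2 ratios changed sign for Klhl21 with ERCC reads (0.25) and with the length trend removed (0.28), for Klhl24 with complete chains (-0.21) and Known models alone (-0.15), and for Klhl40 with opposite-strand reads counted in (0.29; tried once the data had been seen), where Klhl31 was called higher (1.32). The difference in the leading chain share of Klhl30, 0.754 percentage points, turned to -0.0803 with all spliced models and -0.178 with chains of 5 or more reads. Known models alone gave Klhl21 a log2 ratio of -0.94 (adjusted p = 0.0408). Leaving out a replicate gave a summed level of 404 to 824 CPM. The CUL3 ligase list had 7 genes called, and 4 with the length trend removed, where the other cullins had 0 in place of 1. The cause of these changes was not tested. Depth limits Klhl24 most, with 33 reads in replicate 2 and 20 in replicate 1, and in all 6 genes the chains under 5 reads.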
